A study of Mus musculus with 4 samples.

Results

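Antigen presentation is represented here by 37 genes: the molecules, loading factors, regulators and peptide supply of major histocompatibility complex (MHC) class I and class II, and 3 costimulatory receptors or ligands. A gene was assigned every deposited region and every deposited position inside it or within 10000 bp of it, using GENCODE release M21 on GRCm38. The annotation holds 21938 protein-coding genes, which serve as the background. Ifi30 is typed as a processed transcript there, and the rest of the 37 genes are typed as protein-coding.

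The study measured DNA methylation by whole-genome bisulfite sequencing, in which unmethylated cytosines are converted and methylated ones are not. The cells were microglia, the resident macrophages of the brain, taken by cell sorting from untreated mice of 3 months of age and the C57BL/6J strain. The groups were WT, with 2 samples, and IRF8KO, with 2 samples; IRF8 is a transcription factor of myeloid cells, and the labels name no allele and no further agent. The labels do not say whether the samples of a group came from separate animals, so any spread between the samples of a group may be technical.

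Class II molecules are displayed by antigen-presenting cells and carry peptides from the endosomal route to CD4+ T cells. The invariant chain Cd74 guards the new class II groove, proteases such as cathepsin S cut it down, and H2-DM then exchanges the remaining fragment for peptide, a step that H2-O holds back. Class I molecules carry peptides made by the proteasome, moved by the TAP transporter and trimmed in the endoplasmic reticulum. Ciita and Nlrc5 are the transactivators of the class II and class I genes, and microglia at rest are known to show little class II at their surface.

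The deposited data are the authors' comparison of the groups: 3389 differing regions and 269406 differing positions, each with a difference in methylation level. A level is taken here as a fitted estimate of the methylated share, on a scale from 0 to 1. It is not the share of reads at 1 cytosine, since neighbouring positions often have the same difference. No value per sample was analysed here, and the read depth is unknown. Since the headers call the groups 1 and 2 and give no genotype for either number, directions below are relative to the first group, without a genotype. The authors' mean level of each numbered group was not used, because nothing ties a number to a named group, so a difference is given without the levels behind it. Each position has a false discovery rate (FDR) over the positions the authors tested, and a position is called here when it is under 0.05. A position is listed when the deposited posterior probability of a difference over a threshold is at least 0.95. The headers do not give the size of that threshold. A listed position can therefore have a high FDR. Neighbouring positions often carry the same fitted difference, and the G next to a C is the same CpG read on the other strand. Positions within 500 bp of each other were therefore also counted as 1 cluster. No marker check of the cells is possible from methylation tables without expression.

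Of the 37 genes, 5 (13.5%) had a deposited region, against 9.19% of all protein-coding genes. The order turned when regions inside the gene alone were counted, with 2 genes against 6.72%, and under stricter filters on the regions, with 1 gene against 5.14% to 7.54%. A listed position was found at 20 genes (54.1%), against 64.1% of all protein-coding genes. At least 1 position with an FDR under 0.05 was found at 8 genes (21.6%), against 30.8% of all protein-coding genes. The 5 genes with a region were H2-Oa, H2-DMa, H2-DMb2, H2-DMb1 and Nlrc5, and they shared 4 regions. The antigen presentation genes are short, with a median length of 8249 bp against 17425 bp over all protein-coding genes. Among genes of at most 20000 bp, a background added after the data were seen, 4 of 29 antigen presentation genes (13.8%) had a region, against 3.96% of 11779 protein-coding genes. These 4 are neighbours on chromosome 17 and shared 3 regions, so they are not separate observations.

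The sequences of 3 of the 4 regions are shown. Of these, only the H2-Oa region holds positions with an FDR under 0.05. Each sequence is from the RefSeq GRCm38 genome, plus strand, 5′ to 3′. Capitals mark the listed positions: a capital CG is a listed CpG, and a single capital C or G is a listed position outside the reference CpGs, except the last C of the Nlrc5 sequence, whose CpG ends 1 base past the region. Past the end of H2-Oa the region spans chr17:34104780-34105168, of which the 300 bases chr17:34104810-34105109 are printed. In an intron of H2-DMb1 the region spans chr17:34156338-34156399, and in an intron of Nlrc5 it spans chr8:94508920-94509034.
H2-Oa: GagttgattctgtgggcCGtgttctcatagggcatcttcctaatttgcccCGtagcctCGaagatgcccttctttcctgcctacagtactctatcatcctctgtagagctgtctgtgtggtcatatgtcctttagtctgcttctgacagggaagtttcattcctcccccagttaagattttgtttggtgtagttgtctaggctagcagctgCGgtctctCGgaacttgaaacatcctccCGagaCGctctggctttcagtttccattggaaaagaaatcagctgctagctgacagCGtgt
H2-DMb1: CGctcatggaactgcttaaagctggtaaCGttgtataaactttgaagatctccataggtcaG
Nlrc5: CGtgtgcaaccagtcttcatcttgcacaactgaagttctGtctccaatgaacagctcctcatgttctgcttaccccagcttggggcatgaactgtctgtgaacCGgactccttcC

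In the authors' deposited tables the H2-Oa region is 389 bp long and holds 20 listed positions, 18 of them on 9 reference CpGs. The other 3 regions are short: 55, 62 and 115 bp, each with 2 reference CpGs. The median length of the 4 regions was 88.5 bp, against 199 bp over all regions.

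Of the 4 regions, 3 were lower in the first group (75%, exact Clopper-Pearson 95% interval 19.4 to 99.4, counting error only), against 46.7% of all regions. The 3 lower regions lie in the class II part of the MHC and the higher one lies in Nlrc5. In the authors' deposited table the median absolute difference in level of the 4 regions was 0.381 (quartiles 0.354 and 0.415), against 0.405 over all 3389 regions. The table of positions held an FDR under 0.05 inside 1 of the 4 regions, that of H2-Oa, and inside 77.9% of all regions.

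The 20 genes with listed positions held 171 of them, 89 higher and 82 lower in the first group. The lower share was 48.0%, against 38.1% of all listed positions. Of the 171, 138 (80.7%) lay on a reference CpG, against 78.0% of all listed positions. They formed 35 clusters, 18 lower and 17 higher, of which 13 held a single position. An FDR under 0.05 was given for 27 of the 171 (15.8%), against 18.7% of all listed positions. Of these 27, 24 were lower and 3 higher, but 18 of the lower ones belong to the H2-Oa region alone. The absolute differences ran from 0.201 to 0.587 with a median of 0.315, and the median standard error (SE) in the authors' deposited table was 0.0992.

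**Figure D1:**
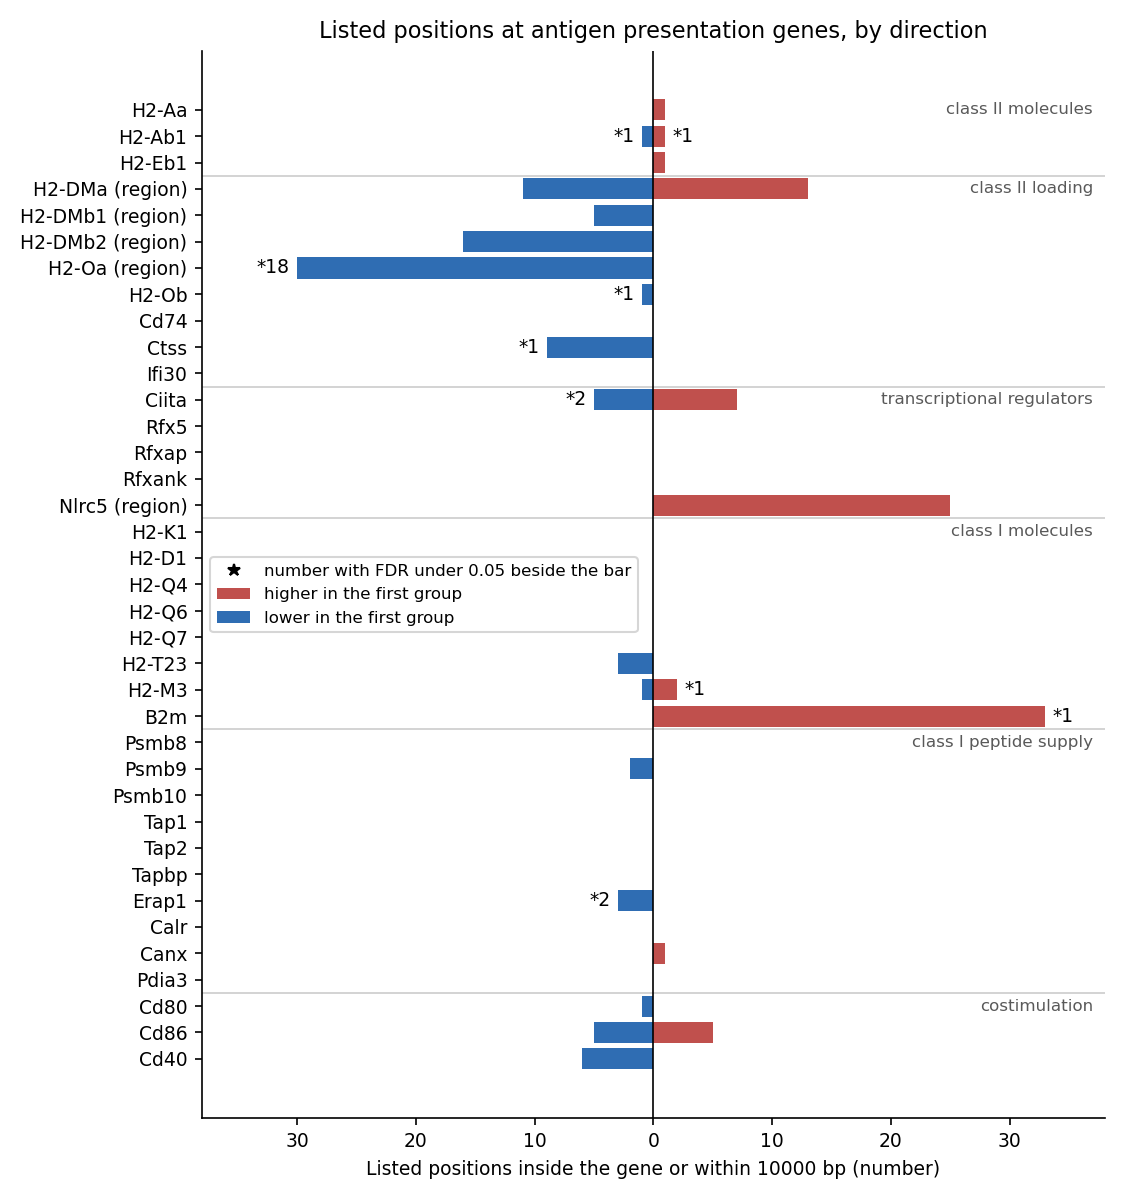
Number of listed positions inside or within 10000 bp of each of the 37 genes, to the left when lower and to the right when higher in the first group, grouped by role; the number after an asterisk counts positions with an FDR under 0.05. The class II loading genes carry 56 lower and 13 higher positions, Nlrc5 and B2m carry 25 and 33 higher ones, and 17 genes have none.

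The 3 class II molecules measured had few listed positions and no region. Each had a listed position and 1 had a called one, beside 64.1% and 30.8% of all protein-coding genes, of which 9.19% had a region. H2-Aa and H2-Ab1 encode the chains of the I-A molecule, and H2-Eb1 encodes the beta chain of I-E. They had 4 listed positions in all, 3 higher and 1 lower, each a single position and none on a reference CpG. H2-Ab1 held both of those with an FDR under 0.05. In the authors' deposited table the first of these, at chr17:34250537 and 7152 bp before the start of H2-Ab1, had a difference of -0.313 (SE 0.0704, FDR 0.0118). It lies inside H2-Ob, the gene of the H2-O beta chain, and is the one listed position of that gene. The other H2-Ab1 position, at chr17:34271036 and 1617 bp past its end, had a difference of 0.264 (SE 0.0642, FDR 0.0359) in the authors' deposited table. The H2-Ab1 positions thus went in opposite directions on the opposite flanks of the gene, and both carry the shared dispersion values. H2-Aa and H2-Eb1 had 1 listed position each, neither under an FDR of 0.05.

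Of the 8 class II loading genes, 4 (50.0%) had a region, 6 (75%) a listed position and 3 (37.5%) a position with an FDR under 0.05, beside 9.19%, 64.1% and 30.8% of all protein-coding genes. The last 2 shares are near the background, and the 4 genes with a region are the neighbours named above. The 69 listed positions of the 8 genes were 56 lower (81.2%, against 38.1% of all listed positions) and 13 higher. All 20 with an FDR under 0.05 were lower. Of these 20, 18 lie in the H2-Oa region.

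H2-Oa encodes the alpha chain of H2-O, the inhibitor of H2-DM. Its region begins 9546 bp past the end of the gene, close to the limit of the window, inside the non-coding gene CR974462.2, and the nearest protein-coding gene is Brd2 at 6855 bp. In the authors' deposited table of regions the difference was -0.493. It ranked 439 of 3389 by area score, the sum of the authors' test statistics over a region, and 479 by absolute difference. The differences at its 20 positions, per the authors' deposited table of positions, lay between -0.587 and -0.384, with SEs from 0.0911 to 0.107, and 18 had an FDR under 0.05.

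The region is the strongest stretch of a longer cluster. Within the window of H2-Oa the cluster spanned 1017 bp and held 30 listed positions, every one lower in the first group, among 38 tested. Their differences, per the authors' deposited table, lay between -0.587 and -0.235, with SEs from 0.0816 to 0.133. The greatest difference, at chr17:34105049, was -0.587 (SE 0.102, FDR 4.64e-05 in the authors' deposited table). The difference deepened toward this position along the region and was smaller on either side of it.

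**Figure D2:**
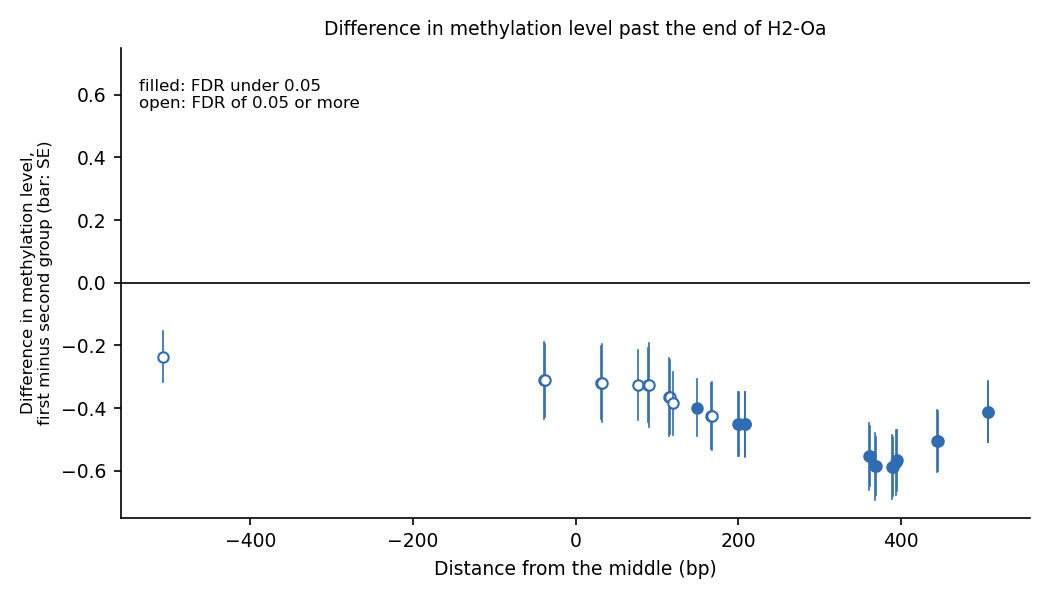
Difference in methylation level (first minus second group) at each of the 30 listed positions past the end of H2-Oa, with a bar of 1 deposited SE on either side, against the distance in bp from the middle of the stretch; filled symbols have an FDR under 0.05. All 30 lie below 0, and the filled ones reach -0.587.

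H2-DMa and the paired beta-chain genes H2-DMb1 and H2-DMb2 encode H2-DM, the exchange factor for class II peptides. One region lies between H2-DMa and H2-DMb2. In the authors' deposited table its difference was -0.388. The FDRs of its 5 positions in the authors' deposited table ran from 0.0932 to 0.858, with SEs from 0.102 to 0.135, so none was called. It belongs to a cluster of 7 listed positions among 8 tested, all lower in the first group.

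The H2-DMb1 region lies in an intron, 3266 bp from the start of the gene and 4783 bp past the end of H2-DMb2. The authors' deposited table gave it a difference of -0.373. None of its 5 positions was called, with FDRs from 0.133 to 0.622 and SEs from 0.0740 to 0.131 in the authors' deposited table. By area score the regions ranked 2818 and 2903 of 3389, near the end of the list.

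H2-DMa also held differences of the other sign. In an intron of its longest gene model, 4770 bp from the outermost start, 13 of 13 consecutive tested positions were higher in the first group. They begin 1479 bp past the nearest annotated start of a protein-coding transcript of the gene. The authors' deposited table gave them differences of 0.277 to 0.296, with SEs from 0.0891 to 0.107, and the lowest FDR was 0.455. Another 4 positions, 17260 bp from the outermost start and 1147 bp past the nearest start of a protein-coding transcript, were lower. Their difference was -0.283 with SEs from 0.0897 to 0.102 in the authors' deposited table. H2-DMa thus had 13 higher and 11 lower positions, H2-DMb2 had 16 lower, and H2-DMb1 had 5 lower; some positions are shared by neighbours.

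Ctss encodes cathepsin S, the protease that trims the invariant chain, and its 9 listed positions were all lower in the first group. A cluster at chr3:95525803-95525943, ending 843 bp before the start of the gene, held 6 of 6 tested positions. It is printed, with 10 bases on either side, because it lies nearer to the outermost start of its gene than any other listed position of the 37 genes.
Ctss upstream: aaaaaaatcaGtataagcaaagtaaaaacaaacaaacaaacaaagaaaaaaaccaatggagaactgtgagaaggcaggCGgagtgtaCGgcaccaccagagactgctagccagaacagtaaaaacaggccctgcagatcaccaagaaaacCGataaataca
In the authors' deposited table its differences were -0.292 to -0.279, with SEs from 0.0723 to 0.110 and a lowest FDR of 0.0800. The called position of Ctss lies in an intron at chr3:95529339, where the authors' deposited table gave a difference of -0.320 (SE 0.0792, FDR 0.0463). Cd74, the invariant chain, and Ifi30, a thiol reductase of the endosome, had nothing listed within 10000 bp.

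Taken as 1 stretch, the class II genes from H2-Oa to H2-Eb1 span 224335 bp of chromosome 17 and held 69 listed positions, 54 of them lower in the first group. Of the 20 with an FDR under 0.05 in that stretch, 19 were lower, 18 of them in the H2-Oa region. The 69 formed 9 clusters, 6 lower and 3 higher, and 3 of the clusters held a called position. The whole H2-Oa cluster held 35 of the 69. Of the 8423 positions tested between the listed positions that flank it, 0.819% were listed, against 0.630% over the genome. This stretch is not the same set as the loading genes, which include Ctss and exclude H2-Ab1, H2-Aa and H2-Eb1.

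Among the 5 transcriptional regulators, Ciita and Nlrc5 had listed positions, and the subunits of the RFX complex, Rfx5, Rfxap and Rfxank, which bind the X box of class II promoters, had none. The 37 listed positions of this role were 32 higher and 5 lower.

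Nlrc5 had 25 listed positions, every one higher in the first group and none with an FDR under 0.05. Its region lies in an intron 74564 bp from the start of the gene, with a difference of 0.295 in the authors' deposited table. That difference ranked 3247 of 3389 by size, and the FDRs in the authors' deposited table began at 0.186, with SEs from 0.0797 to 0.110. The region is the start of a run of 22 listed among 22 tested positions over 437 bp. Along the run the differences stayed between 0.261 and 0.339 in the authors' deposited table, with SEs from 0.0797 to 0.112. A cluster of 3 further positions, 12578 bp from the start, had a difference of 0.355 and a lowest FDR of 0.165 in the authors' deposited table.

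Ciita had 12 listed positions, 7 higher and 5 lower. The 5 upstream of the gene, 3415 to 5478 bp before its start, were all higher in the first group, by 0.203 to 0.363 in the authors' deposited table, the lowest FDR being 0.0599. The called positions are 2 of a run of 4 among 4 tested in an intron, 40481 bp from the outermost start and also within the annotated span of Dexi. The run is printed, with 10 bases on either side, as chr16:10520530-10520642, because its median difference is the second greatest among the cluster medians.
Ciita intron: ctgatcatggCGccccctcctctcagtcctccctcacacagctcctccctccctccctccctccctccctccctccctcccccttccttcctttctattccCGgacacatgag
At chr16:10520540 and chr16:10520632 the authors' deposited table gave a difference of -0.527 (SE 0.130, FDR 0.0438), with the shared dispersion values. The other strands of the same CpGs, at chr16:10520541 and chr16:10520631, had the same difference and were not called. Their SEs were 0.178 and 0.175 and their FDRs 0.727 and 0.651. The stretch between its 2 CpGs is a pyrimidine repeat without a CpG, and its read coverage was not analysed here.

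Of the 8 class I molecules, none had a region and 3 (37.5%) had listed positions, against 9.19% and 64.1% of all protein-coding genes. The listed positions were 35 higher and 4 lower (10.3%), against 38.1% lower over all listed positions. B2m, the light chain that every classical class I molecule needs, had 33 of these, all higher in the first group, and 28 lay inside the gene. The main cluster, chr2:122150824-122151184, covers a coding exon and its flanks, 3138 bp from the start, and held 25 of 25 tested positions. Its last 300 bases are printed because every tested position of the cluster was listed and an exon is covered.
B2m coding exon and flanks: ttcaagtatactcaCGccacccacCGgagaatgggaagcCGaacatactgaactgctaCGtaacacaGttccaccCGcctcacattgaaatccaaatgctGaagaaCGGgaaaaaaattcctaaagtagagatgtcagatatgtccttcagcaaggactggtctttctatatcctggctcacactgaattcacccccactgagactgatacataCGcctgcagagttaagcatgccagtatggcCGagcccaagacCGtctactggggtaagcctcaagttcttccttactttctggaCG
In the authors' deposited table its differences were 0.287 to 0.316, with SEs from 0.0863 to 0.112, and the lowest FDR was 0.174. The 25 positions thus shared 1 direction and no call. The called B2m position, at chr2:122162611, lies 9528 bp past the end of the gene and within the annotated spans of Patl2 and Trim69. The authors' deposited table gave a difference of 0.374 (SE 0.0928, FDR 0.0479). The other listed positions of its cluster, the other strand of this CpG included, had the same difference and were not called. Their SEs ran from 0.108 to 0.135. B2m itself also lies within the span of a Patl2 model.

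H2-M3, a non-classical class I molecule that presents formylated peptides, had 3 listed positions, 2 of them on 1 CpG. The called one, at chr17:37280815, lies 6331 bp past its end, inside the olfactory receptor gene Olfr99. The authors' deposited table gave it a difference of 0.458 (SE 0.101, FDR 0.00804), with the shared dispersion values. The other strand of this CpG, at chr17:37280816, had the same difference with an SE of 0.181 and was not called. H2-T23, which encodes Qa-1, had 3 lower positions, each with a difference of -0.285 in the authors' deposited table and none on a reference CpG. The classical H2-K1 and H2-D1 and the related H2-Q4, H2-Q6 and H2-Q7 had nothing listed; they have near-identical copies in the genome, so the placing of reads among them is uncertain.

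Of the 10 genes that supply class I peptides, 3 had listed positions and none had a region. Erap1 encodes the aminopeptidase that trims peptides in the endoplasmic reticulum. Both strands of 1 of its CpGs, at chr13:74651581 in an intron and 12013 bp from the outermost start, were called. The CpG is shown with 10 bases on either side because its difference is the greatest of any cluster median at the 37 genes.
Erap1 intron: tcttcagagaCGtgaagatctt
The authors' deposited table gave a difference of -0.569 (SEs 0.0901 and 0.115, FDRs 2.26e-06 and 0.00172). The finding rests on 1 CpG, since no other listed position lies within 500 bp. Psmb9, a subunit of the immunoproteasome, had 2 lower positions 7737 bp past its end, with a difference of -0.359 and a lowest FDR of 0.0760 in the authors' deposited table. Canx, a chaperone of new class I chains, had 1 higher position. Nothing was listed at Psmb8 and Psmb10 (immunoproteasome), Tap1 and Tap2 (peptide transporter), Tapbp, Calr and Pdia3 (peptide-loading complex).

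The 3 costimulation genes all had listed positions, 12 lower (70.6%, against 38.1% of all listed positions) and 5 higher, with none called and no region. Over all protein-coding genes, 64.1% had a listed position, 30.8% a called one and 9.19% a region. Cd40, the receptor for CD40 ligand of T cells, had 6 of 6 tested positions lower in an intron at chr2:165061665-165061696. The cluster is printed with 10 bases on either side because its FDR came closest to the threshold among the multi-position clusters of these 3 genes.
Cd40 intron: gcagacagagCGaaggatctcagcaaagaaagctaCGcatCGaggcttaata
Its differences in the authors' deposited table ran from -0.375 to -0.321, with SEs from 0.0950 to 0.114 and a lowest FDR of 0.0612. Cd86, a ligand of CD28, had 5 lower positions 17134 bp from its start, with differences from -0.344 to -0.290, and 5 higher ones 3040 bp from its start, with differences from 0.277 to 0.299, per the authors' deposited table. The lower and the higher cluster thus lie in the same gene, with lowest FDRs of 0.190 and 0.214. Cd80, the other CD28 ligand, had 1 lower position outside the reference CpGs.

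**Figure D3:**
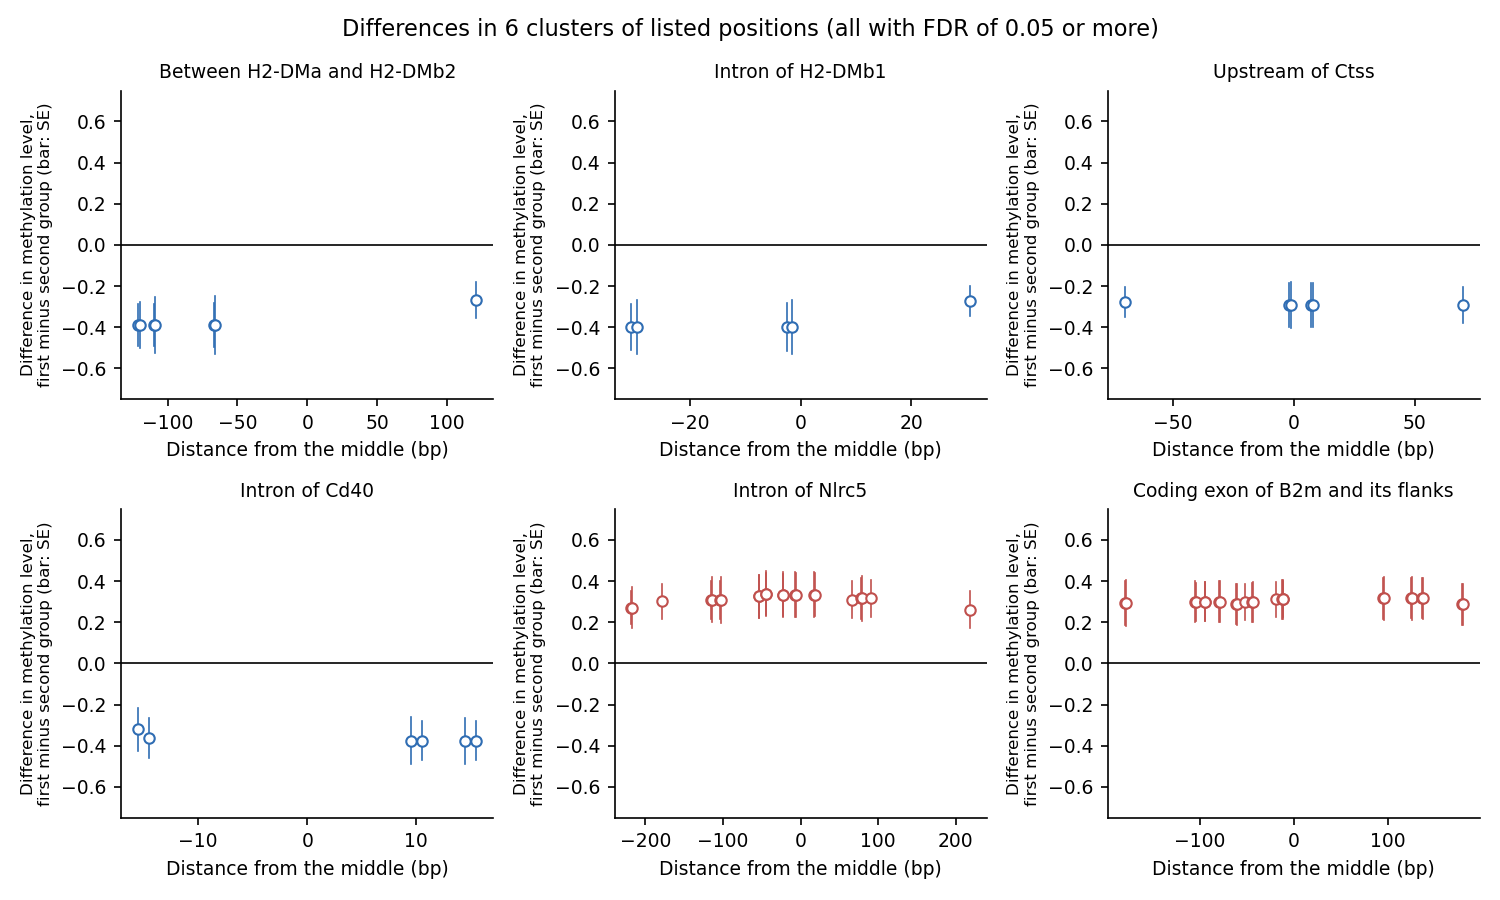
Difference in methylation level (first minus second group), with a bar of 1 deposited SE on either side, at 6 clusters of listed positions, against the distance in bp from the middle of each; open symbols have an FDR of 0.05 or more. The differences are below 0 at the H2-DM, Ctss and Cd40 clusters and above 0 at the Nlrc5 and B2m clusters. None of the 6 holds both signs, which is so of all 35 clusters. However, 13 of the 35 are a single position, and neighbouring positions often carry the same fitted difference. Agreement of sign within a cluster is therefore not a separate observation.

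Differences at the 37 genes therefore ran in both directions, and the clusters of a single gene did so at H2-DMa, Ciita, H2-M3, Cd86 and H2-Ab1. The greatest cluster medians by size were lower ones, at Erap1 (-0.569, on 1 CpG) and Ciita (-0.527, on 2 CpGs). The greatest higher one, at H2-M3 (0.458), was larger in size than that of H2-Oa (-0.425). No test of the directions against each other was made. The cluster medians beside their deposited SEs are given in the plot of differences by cluster.

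**Figure D4:**
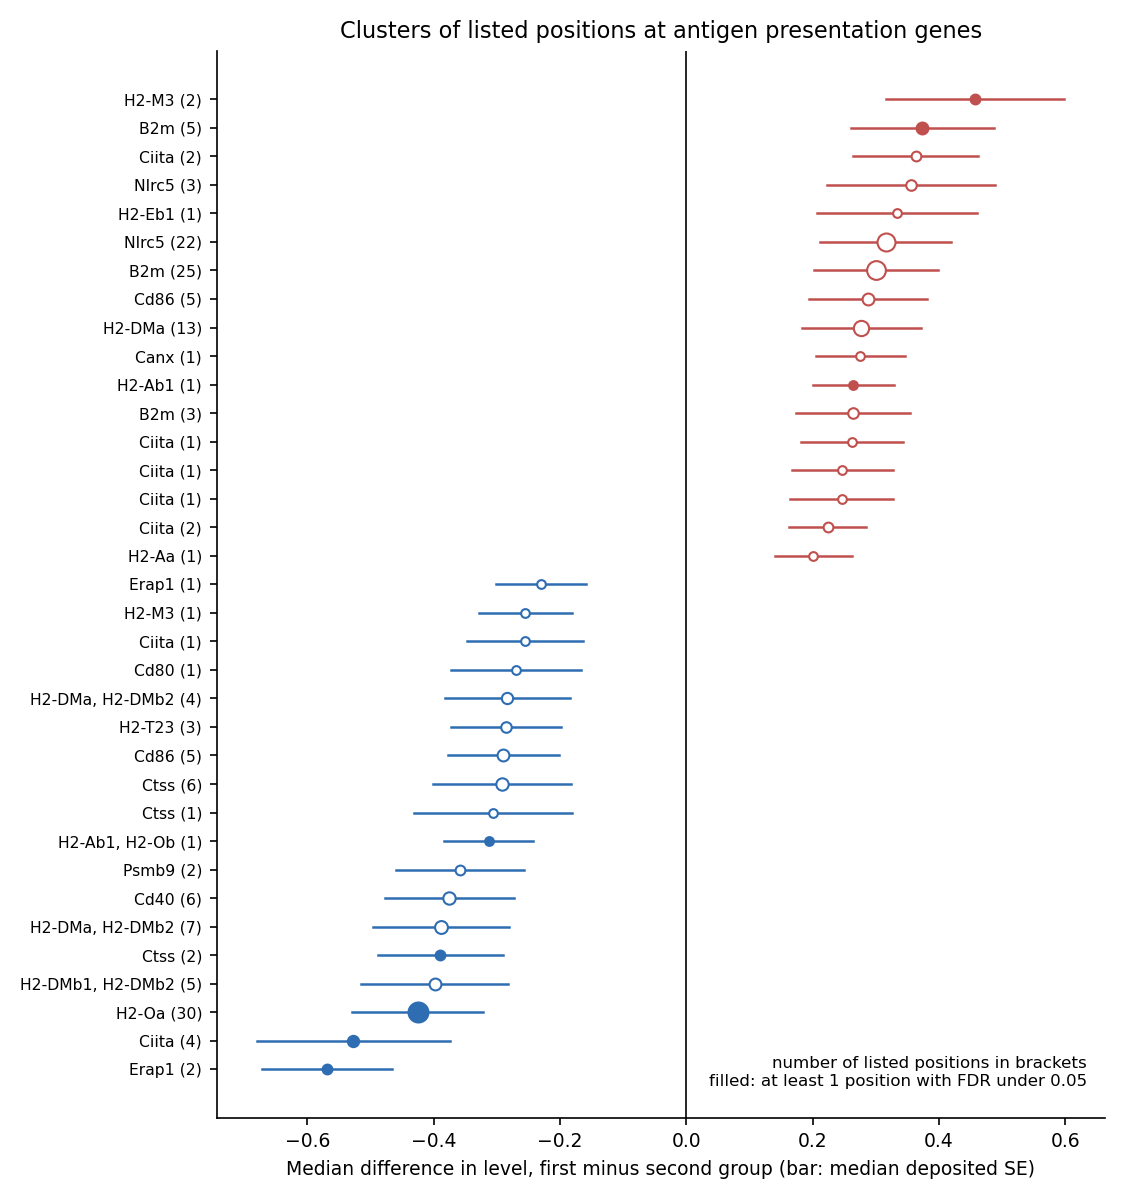
Median difference in methylation level (first minus second group, scale 0 to 1) of each of the 35 clusters, with a bar of 1 median deposited SE on either side and the number of listed positions in brackets; filled symbols hold a position with an FDR under 0.05. The 18 lower clusters reach -0.569 (Erap1) and the 17 higher ones 0.458 (H2-M3), and 8 clusters are filled.

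At the promoters nothing was listed. RefSeq promoters, from 250 bases before to 50 bases after a gene start, were matched for 29 of the 37 genes by symbol, which gave 31 promoters. A listed position fell in 0 of the 31, against 231 of 32851 RefSeq promoters (0.703%), a share too small to be read against 31 promoters. Among the 29 matched genes, the Ctss cluster described above was nearest to a RefSeq start. Ciita, which was not matched, had a single lower position in an intron, at chr16:10487991, that lies nearer than this to the start of an annotated GENCODE transcript, with a difference of -0.255 in the authors' deposited table and an FDR above 0.05.

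The 17 genes with nothing listed are not shown to be equal between the groups, since a position that is absent from the list has no value here. The deposited positions keep the number they had among all those tested, so the tested positions between the nearest listed ones on each side of such a gene could be counted. Their number was 86.3% to 118% of the reference CpG cytosines in the same interval, against 97.7% over the genome; it can pass 100% because positions outside the reference CpGs were tested too. The lowest value belonged to H2-Q4.

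Further from the genes, several regions lay around Cd74. Within 50000 bp there were 11 regions. Of these, 9 were lower in the first group (81.8%, exact Clopper-Pearson 95% interval 48.2 to 97.7, counting error only), against 46.7% of all regions. Of the 11, 7 lay beyond the 10000 bp window. Cd74 was the nearest of the 37 genes for 5 of these 7. In the authors' deposited table the region 18059 bp past the end of Cd74 had a difference of -0.532, and 31 of its 35 positions had an FDR under 0.05. The region 31127 bp past the end had a difference of -0.450, with 32 of 42 positions under that FDR in the authors' deposited table. These ranked 102 and 95 of 3389 by area score and lie inside Tcof1, a gene of ribosome biogenesis. Both hold the ETS-IRF composite element described below, as do 17.6% of all lower regions. They are 622 and 468 bp long, against a median of 199 bp over all regions. The region 11847 bp before the start had a difference of -0.420 (4 of 9 positions under an FDR of 0.05), that 44349 bp past the end had a difference of -0.336, and that 41017 bp before the start was higher by 0.352, in the authors' deposited table. The other 2 were lower: 1 at 17573 bp before Ctss, inside the neighbouring protease gene Ctsk (difference -0.432, 9 of 17 positions called), and 1 at 21763 bp past Canx, inside Maml1 (difference -0.388, none called), in the authors' deposited table. Which gene, if any, these distal regions bear on was not tested.

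**Figure D5:**
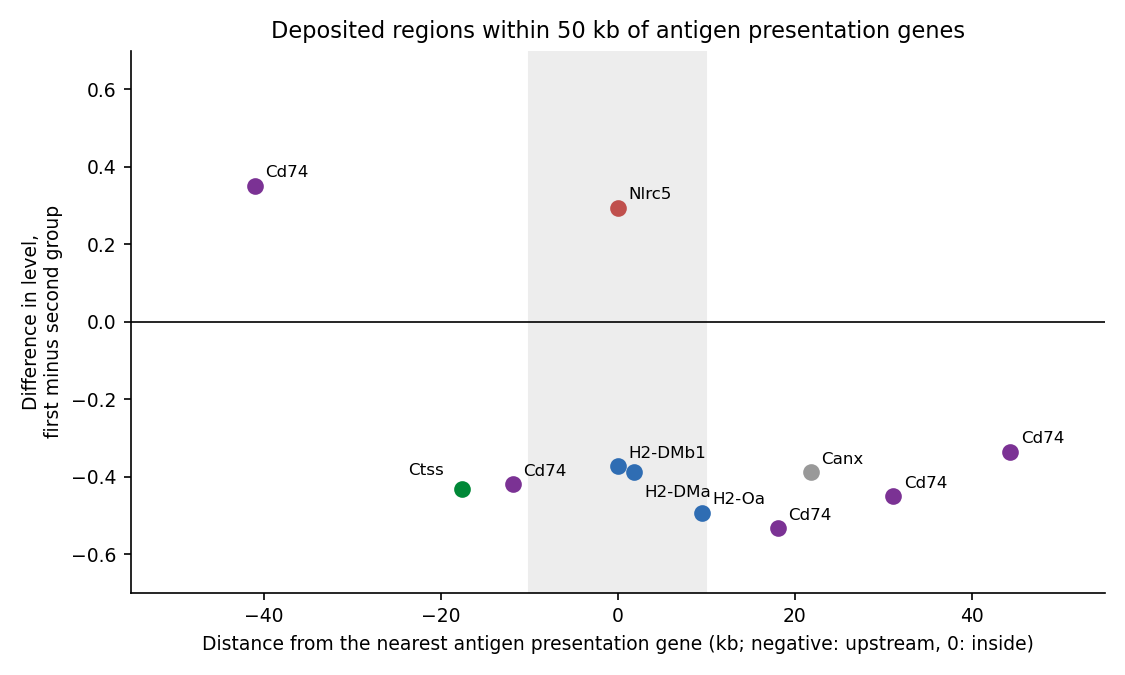
Difference in methylation level (first minus second group) of the 11 deposited regions within 50000 bp, against the distance in kb from the nearest of the 37 genes (negative: upstream, 0: inside); the grey band is the window of 10000 bp on either side. The 5 regions nearest Cd74 lie outside the band and 4 of them are lower in the first group, down to -0.532.

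Sequence patterns were searched on both strands of the 4 regions. The composite element GGAANNGAAA, bound by an ETS factor such as PU.1 together with IRF8 or IRF4, was found in 1 of 4 regions, that of H2-Oa, against 9.38% of all 3389 regions (17.6% of the lower and 2.16% of the higher ones). In windows of 500 bp centred on the regions it was found in 2 of 4, against 15.7% of all (28.8% of the lower and 4.26% of the higher ones). Both of these are lower regions, those of H2-Oa and H2-DMb1. The element GAAANNGAAA, which IRF factors bind without an ETS partner, was found in the H2-Oa region as GAAACTGAAA, against 4.84% of all regions; it differs from the composite at the second letter, so both never match the same bases. ATTGG, the Y box core (an inverted CCAAT box), was in 2 of 4 regions, against 25.4%. TGACG, the core of the X2 box, was in 1 of 4, against 14.7%. In the H2-Oa region the ATTGG overlaps the first bases of the composite. The regions differ in length, and a match is a description of the letters, not a bound site.

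The composite elements are printed in capitals within 50 bases of the RefSeq GRCm38 plus strand, because they are the IRF8-type pattern nearest to the class II regions. The one at chr17:34105077-34105086 lies 19 bp from the nearest listed position in the H2-Oa region. The one at chr17:34156304-34156313, on the minus strand, lies 25 bp from the nearest listed position of the H2-DMb1 region and outside the region itself.
H2-Oa composite: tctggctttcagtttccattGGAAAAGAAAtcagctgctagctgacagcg
H2-DMb1 composite: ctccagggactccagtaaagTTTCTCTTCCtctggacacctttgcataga

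Another 50 genes of the pathway, chosen as further class I and class II molecules, proteases, ubiquitin ligases, ligands and transcription factors, were counted in the same way. Of these, 9 (18.0%) had a region, 40 (80.0%) a listed position and 20 (40.0%) a position with an FDR under 0.05, beside 9.19%, 64.1% and 30.8% of all protein-coding genes. Their 12 regions were 9 higher and 3 lower. The lower ones in the authors' deposited table were at Nfyb, a subunit of the Y box factor (difference -0.531, all 16 positions called), Creb1, a factor of the X2 box (-0.475, 11 of 13 called), and Irf2, an interferon regulatory factor (-0.404, 1 of 16 called). Irf2 had 2 further regions that were higher, by 0.396 and 0.444, in the authors' deposited table.

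Other higher regions were at Npepps, a peptidase (difference 0.404), Ctsh, a cathepsin (0.520), March1, the ligase that removes class II from the surface (0.450 and 0.429), and Pdcd1lg2, a ligand of PD-1 (0.524), in the authors' deposited table. At Irf8 itself, the gene named in the IRF8KO label, a region over a coding exon had a difference of 0.275, with 0 of 15 positions under an FDR of 0.05 in the authors' deposited table. The 12 regions thus held both directions, while the 3 regions at class II loading genes were lower; whether the sets differ was not tested.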

How the data were processed

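Whole-genome bisulfite sequencing of 4 samples was used through the authors' comparison of the groups, with 0 per-sample columns left unused. Per the submitters' processing notes, Trim Galore, Bismark and mm10 were named, without role or version; for the caller and its test, the sources used here name nothing. Per the file headers, the deposited tables hold a difference in methylation level (first minus second group) with its SE, a p-value with its FDR, a posterior probability, and, per region, a deposited area score. The read depth is unknown, so no interval that needs it was computed, and no test was added. The 2 level columns of each table are tied to no named group; they were read once, to check the sign of the difference, and left out of all else.

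Regions and positions were assigned to genes of GENCODE release M21 (inside or within 10000 bp), and positions within 500 bp were joined into clusters. Coordinates count from 1 on GRCm38, on which 78.0% of listed positions fall on a CpG; what the 59168 others are, an effect of coordinates included, was not tested. Counting was done in Python 3.11.15 with pandas 2.3.3, numpy 2.4.6, scipy 1.17.1 and pysam 0.24.0, and plots were drawn with matplotlib 3.10.9; the scripts were tested on simulated data.

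The members, gene lists and alternatives were chosen with earlier results of these data known. Genes were named by rule: each with a region, then each with a position under an FDR of 0.05 but no region, then up to 5 with listed positions by their number, and those with nothing listed once; of the other pathway genes, those with a region. The sequence of 1 region and the values of 1 other pathway gene are not reported here. H2-Aa, H2-Eb1, Canx and Cd80, with 1 listed position each, and the genes nearest to distal regions were named after their values were seen, as were the clusters and sites whose sequences are printed. Alternatives covered the window, the FDR, the number of cytosines or CpGs, the size of the difference and the assignment to genes.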

Additional observations from a re-analysis of the deposited data

How the results depend on the processing

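The counts depended on the window and on how much evidence a region had to hold, which follows from fewer or more regions and positions being counted. Of 34 alternatives over 5 results, 11 stayed within the limits used (a count within 1.5 times, or a share within its interval) and 23 moved. That 0 reversed carries little weight, since a count or a median size cannot reverse. The interval of the share of lower regions, 19.4 to 99.4, is also so wide that few values fall outside it. Genes with a region, 5 as reported, were 2 with regions inside the gene (all protein-coding genes 6.72%), 3 at 2000 bp (7.22%), 12 at 50000 bp (18.8%), 3 by distance to a transcript start (5.78%) and 3 with the nearest protein-coding gene alone (7.79%). They were 1, H2-Oa, with at least 10 cytosines (5.14%), with a difference of at least 0.4 (5.62%), with a called position in the region (7.54%), or with at least 3 reference CpGs (6.65%). The share of members with a region was thus above the background as reported but below it inside the gene and under each of these stricter filters. Genes with a listed position, 20 as reported, were 12 inside the gene (41.4%), 13 at 2000 bp (47.0%) and 35 at 50000 bp (91.8%). Genes with a position under an FDR of 0.05, 8 as reported, were 4 inside the gene (20.1%), 5 at 2000 bp (22.2%), 5 at 5000 bp (25.5%) and 21 at 50000 bp (59.0%). They were 3 at an FDR of 0.01 (21.9%), 2 at 0.001 (14.3%), 1 with at least 3 such positions (11.1%) and 5 without positions inside another protein-coding gene. The share of lower regions, 75% as reported, was 100% with at least 10 cytosines or a called position, where 1 region was left, and 51.4% when clusters were counted instead. The median absolute difference, 0.381, was 0.493 for that 1 region. The 3 reference CpGs, the exclusion of positions inside another gene, the clusters and the background of short genes were added after seeing the data.

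No paired analysis was possible because neither deposited table carries per-sample columns. Leaving out each sample and a minimum on coverage were not run for the same reason. With the depth unknown, a position that is not listed cannot be read as equal between the groups.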
